A study of Homo sapiens with 4 samples.

Results

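The 7 genes examined here, ERG, FLI1, ETV1, ETV4, ETV5, ETS1 and ETS2, encode transcription factors of the ETS family that are rearranged or expressed in prostate cancer. They were chosen by name among 19689 protein-coding genes of the GENCODE annotation. Each accessible interval (peak) whose strongest summit lay in the body of a member gene or within 100 kb of either end was taken. This gave 132 of the 149676 peaks of C4-2B and 94 of the 118728 peaks of C4-2BER. The windows of ERG and ETS2 on chromosome 21 overlap, as do those of ETS1 and FLI1 on chromosome 11. Therefore 15 of the 132 and 7 of the 94 peaks belong to 2 genes, and they are counted once in totals over all genes.

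ETS factors bind DNA through a winged helix-turn-helix domain that reads a GGA core, and several of them act at the end of receptor tyrosine kinase and MAPK signalling. ERG and FLI1 form one subfamily, ETV1, ETV4 and ETV5 form the PEA3 subfamily, and ETS1 and ETS2 are the founding members. In prostate cancer, fusions place ERG or a PEA3 gene under androgen-driven sequences such as those of TMPRSS2. The LNCaP lineage, to which C4-2B belongs, carries an ETV1 locus moved into the MIPOL1 region, and reads from a moved copy align to the same coordinates as the reference copy.

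Open chromatin was mapped by ATAC-seq, where Tn5 transposase cuts exposed DNA and adds adapters to it. C4-2B is a human prostate adenocarcinoma line, and C4-2BER is 1 line, labelled neuroendocrine-like, that was raised from it under continuous enzalutamide, an androgen receptor blocker. Both were grown in RPMI with fetal bovine serum, to which enzalutamide was added throughout for C4-2BER. The 2 libraries of a line were merged ahead of peak calling, so each line has 1 peak list, with no SD, no p and no replicate check, and the lists were not tested against each other. Positions are in hg38.

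Each peak is described as follows. Reads are the number of reads over its strongest summit, recovered from the deposited fold and −log10 p. Rank is its percentile by −log10 p within its own list, where 100 is the strongest. The −log10 q is the strength given by the peak caller within that list, and peaks at 10 or more are called strong. A peak with an overlap of 1 bp or more in the other list is shared, and any other is line-only. The recovered depth came to 30.2 M reads in C4-2B against 25.2 M in C4-2BER, and read ratios between the lines are divided by the depth ratio. Their 95% intervals, like those of shares, cover counting error only. Promoters of KLK3 and FOLH1, which are expressed in luminal prostate cells, and of CHGA and SYP, which mark neuroendocrine cells, had peaks in both lists. At its strongest promoter peak, KLK3 (prostate-specific antigen) had 171 reads in C4-2B against 45 in C4-2BER, and FOLH1 had 82 and 65. CHGA had 74 and 62 reads, and SYP 92 and 75.

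Across the 7 windows the C4-2B list held more sites, as it did over the genome. Of its 132 peaks, 51 were C4-2B-only (38.6%, Wilson 95% interval 30.8 to 47.2), and over all C4-2B peaks the line-only part was 37.7%. Of the 94 C4-2BER peaks, 13 were C4-2BER-only (13.8%, 8.26 to 22.2), against 20.8% over all peaks of that list. Strong peaks made up 19 of the 51 C4-2B-only sites (37.3%, against 37.5% of all C4-2B-only peaks). They made up 3 of the 13 C4-2BER-only sites (23.1%, against 18.9% of all C4-2BER-only peaks). Shared C4-2B summits had a median of 36 reads and C4-2B-only summits 16, where all peaks of these classes had 42 and 19. For shared and line-only C4-2BER summits the medians were 28 and 19 reads, against 27 and 14 over all peaks. When the same number of top peaks was taken from each list, the line-only parts came close together, at 27.8% (C4-2B) and 23.4% (C4-2BER).

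**Figure D1:**
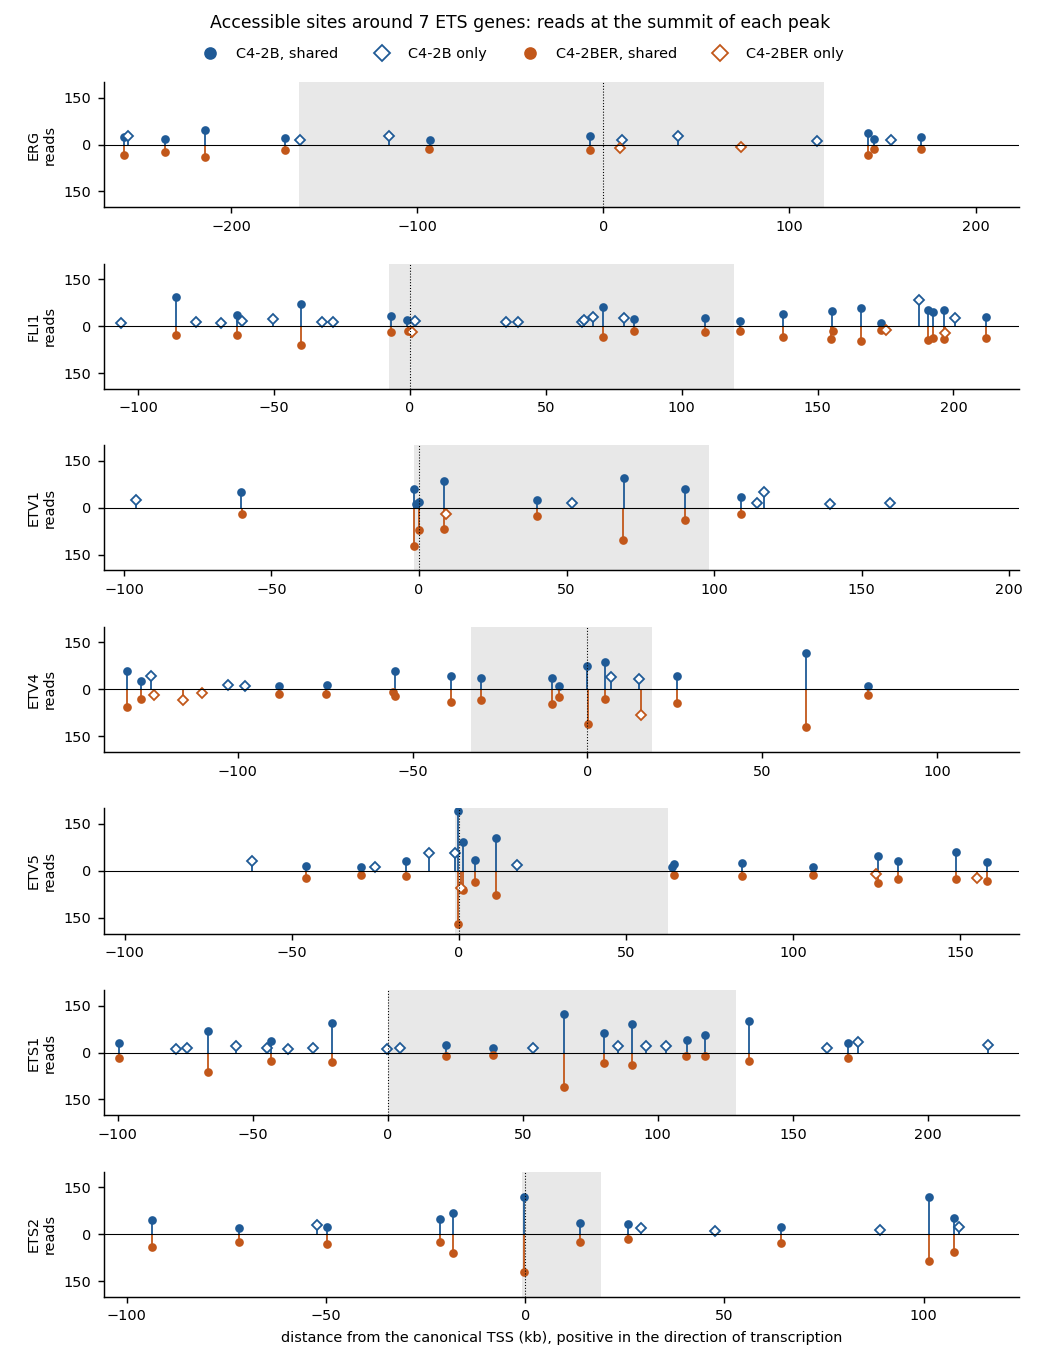
Peaks around the 7 genes, 1 panel per gene. The x axis is the distance of the summit from the canonical start site in kb, positive in the direction of transcription, and the grey band is the gene body. The y axis is the number of reads at the summit, upward for C4-2B and downward for C4-2BER, without depth scaling. Filled circles are shared peaks and open diamonds line-only peaks. The tallest sites are those of the ETV5 start, with 192 and 168 reads.

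Of the promoter summits that could be matched, only those of ETV1 had more reads in C4-2BER beyond counting error. The canonical ETV4 promoter, with 76 reads in C4-2B against 111 in C4-2BER, was left out because its summits lay 435 bp apart. ETV1, a PEA3 factor (chr7:13891229-13991425, minus strand), had 15 C4-2B peaks, 6 of them line-only, and 9 C4-2BER peaks, 1 of them line-only. Its protein-coding transcripts start in 4 groups of transcription start sites (TSSs), and the first 3 of them had a peak in both lists. At the group furthest upstream, the peak had 60 reads in C4-2B (rank 80.9) against 123 reads in C4-2BER (rank 92.7), a depth-scaled ratio of 2.45 (1.79 to 3.40). At the canonical TSS the summit had 19 reads in C4-2B (rank 19.9) against 72 in C4-2BER (rank 73.4), a ratio of 4.53 (2.70 to 7.96). Over all 86163 matched summits, 5.1% had an interval above 1, and these ratios stood at places 98.8 and 99.8 in percentiles.

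The open region at ETV1 was also wider in C4-2BER. There the first promoter peak spanned 1395 bp and covered the place of 2 C4-2B peaks, of 714 and 344 bp. The local background, which is a mean over 10000 bp and includes reads of the peaks themselves, was 4.14 reads in C4-2B against 14.7 in C4-2BER. Scaled for depth it was 4.25 to 4.32 times higher in C4-2BER at both promoter summits. The fold over this background was therefore lower in C4-2BER at the upstream promoter, at 7.89 against 11.9 in C4-2B. At the canonical TSS the fold was 4.64 in C4-2BER against 3.94 in C4-2B. The other 6 matched ETV1 sites had read ratios from 0.493 to 1.34, with background ratios from 0.648 to 1.31. The part of gene copy number or of the moved ETV1 locus in these values was not tested.

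The highest-ranked peak of the ETV1 window was intronic in each list, at a different site, and the read ratios of both sites had intervals that took in 1. The site at chr7:13919915-13920712 had 96 reads in C4-2B (rank 94.5) against 102 in C4-2BER (rank 97.1), a ratio of 1.27 (0.953 to 1.70). A second intronic site lay at chr7:13981087-13981548, 8369 bp inside the gene from the canonical TSS. It had 86 reads in C4-2B (rank 95.1) against 69 in C4-2BER (rank 92.2), a ratio of 0.960 (0.689 to 1.33). Below the gene, the peak at chr7:13872641-13873075 was strong and C4-2B-only, with 50 reads and a −log10 q of 42.4, and the nearest C4-2BER peak lay 7293 bp away. It lies outside protein-coding and lncRNA genes. The sole C4-2BER-only peak, at chr7:13980564-13980773, was weak, with 19 reads.

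Sequences of ETV1 are shown for the upstream promoter, for the strongest intronic site of C4-2BER and for the strong C4-2B-only site. The promoter is the 250 bases before the RefSeq start (GRCh38.p14), chr7:13991426-13991675, minus strand, and the others are 121 bases around a summit, plus strand of hg38, at chr7:13920295-13920415 and chr7:13872801-13872921. Capitals mark matches to the motifs spelled out further on, here HOXB13 in the promoter and an E-box in the intron, and the third sequence holds none.
ETV1 promoter: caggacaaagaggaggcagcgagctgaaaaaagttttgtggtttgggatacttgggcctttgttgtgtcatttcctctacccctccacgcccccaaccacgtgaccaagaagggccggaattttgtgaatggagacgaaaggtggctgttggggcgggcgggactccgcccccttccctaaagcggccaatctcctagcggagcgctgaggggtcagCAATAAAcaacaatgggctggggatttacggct
ETV1 intron: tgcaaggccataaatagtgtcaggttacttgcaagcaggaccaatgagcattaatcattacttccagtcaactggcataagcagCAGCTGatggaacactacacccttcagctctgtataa
ETV1 downstream: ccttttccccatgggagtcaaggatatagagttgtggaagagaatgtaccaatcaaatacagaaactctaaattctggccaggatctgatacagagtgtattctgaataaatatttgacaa

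ETV4 (chr17:43527844-43579620, minus strand), a PEA3 factor that is itself a fusion partner, had 19 peaks in each list, with 5 C4-2B-only and 4 C4-2BER-only. At the canonical start the peak had 76 reads in C4-2B (rank 77.9) against 111 in C4-2BER (rank 90.8), but the summits lay 435 bp apart and were not matched. The downstream TSS at chr17:43530434 was the single TSS group with a C4-2BER peak only, at chr17:43530249-43531186. This peak had 83 reads, a fold of 9.95 over the background, a −log10 q of 53.4 and rank 89.8. Its interval also lies inside the neighbouring gene DHX8. The nearest C4-2B peak, chr17:43531468-43531862, was itself line-only, with 32 reads, and began 282 bp beyond the C4-2BER peak and 1034 bp from the TSS, just outside the 1000 bp window. With a window of 2000 bp, 0 TSS groups were C4-2BER-only.

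The 121 bases around the C4-2BER-only summit are given because no other TSS group of the 7 genes had a strong peak in 1 list and none in the other. They lie at chr17:43530849-43530969, plus strand of hg38, and hold none of the motifs.
ETV4 downstream start: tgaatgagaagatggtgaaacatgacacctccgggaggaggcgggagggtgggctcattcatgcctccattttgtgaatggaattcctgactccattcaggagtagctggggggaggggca

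Other ETV4 sites went both ways. The intronic site 8031 bp before the canonical TSS had 12 reads in C4-2B against 25 in C4-2BER, a ratio of 2.49 (1.21 to 5.45). By contrast, the site 55142 bp upstream had 60 and 21 reads, a ratio of 0.419 (0.242 to 0.698). Another intronic site, 5066 bp inside the gene, had 86 and 32 reads, a ratio of 0.445 (0.287 to 0.675). The strongest peak of the window in either list, with 115 reads in C4-2B against 119 in C4-2BER, was at the promoter of DHX8 and not at that of ETV4. In the upstream flank, chr17:43670876-43671345 was C4-2B-only with 43 reads, and chr17:43661740-43662189, at a promoter of MEOX1, was C4-2BER-only with 33 reads and a −log10 q of 21.6.

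ETV5 (chr3:186046314-186110318, minus strand) had the strongest promoter of the group, with a rank of 98.1 or more in both lists. Its peak had 192 reads in C4-2B (rank 98.9) against 168 in C4-2BER (rank 98.1), a ratio of 1.05 (0.846 to 1.29). The intronic peak 11151 bp inside the gene had 104 and 77 reads, a ratio of 0.886 (0.651 to 1.20). The window held 20 peaks in C4-2B against 17 in C4-2BER, with 5 and 3 line-only. Beside the main promoter peak, the lists differed in smaller peaks. A C4-2B-only peak of 57 reads lay at chr3:186110097-186110393, and a C4-2BER-only peak of 56 reads at chr3:186108339-186108784, each within 500 bp of a peak of the other list. Their local background was 17.3 and 17.2 reads.

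The clearest C4-2B-only site of ETV5 was upstream, inside the neighbouring gene DGKG. It lay at chr3:186117613-186118070, 8795 bp before the canonical TSS, with 57 reads and a −log10 q of 42.7, and the nearest C4-2BER peak was 6356 bp away. The lowest read ratio of the window was in the downstream flank, 148833 bp from the TSS, where 62 reads in C4-2B stood against 25 in C4-2BER, a ratio of 0.482 (0.290 to 0.779). The upstream C4-2B-only summit is shown with its 121 bases, chr3:186117824-186117944, plus strand of hg38, in which no motif matched.
ETV5 upstream: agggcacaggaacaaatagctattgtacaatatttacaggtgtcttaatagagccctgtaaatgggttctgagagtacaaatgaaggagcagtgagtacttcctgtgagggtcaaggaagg

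ERG (chr21:38380027-38661780, minus strand), the ETS gene most often fused in prostate cancer, lay in sparse and weak accessibility in both lines. Its window held 3.32 C4-2B peaks and 2.28 C4-2BER peaks per 100 kb. Among the 18528 genes with at least 5 peaks of each list in the window, these densities stood at percentiles 5.51 and 2.66, where the medians were 7.91 and 6.48 peaks. No peak lay at the canonical start in either list. Both upstream TSS groups shared 1 weak C4-2B-only peak, chr21:38661318-38661560, with 14 reads (rank 18.4). The strongest peak of the window was 213807 bp upstream, with 45 reads in C4-2B against 41 in C4-2BER. None of the 9 matched ERG sites had a ratio interval off 1, and the ratios ran from 0.648 to 1.65.

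Within the ERG body 5 of 7 C4-2B peaks against 2 of 4 C4-2BER peaks were line-only. The strongest of them were C4-2B-only and intronic, at chr21:38612959-38613682 with 28 reads and chr21:38458289-38458581 with 26 reads. The C4-2BER-only peaks had 9 and 10 reads, close to the lowest summit of that list, at 7. Between ERG and ETS2, chr21:38753204-38753779 was C4-2B-only with 28 reads and a −log10 q of 16.0. It was the only line-only peak of the 7 windows with a full match to the androgen/glucocorticoid receptor motif, in capitals in its 121 bases at chr21:38753578-38753698, plus strand of hg38. Of all C4-2B-only peaks, 2.84% held such a match. A shared peak at the most upstream FLI1 TSS group held a match too. It was 1 of the 81 shared C4-2B peaks of the windows (1.23%, against 0.794% of all shared C4-2B peaks).
ERG to ETS2: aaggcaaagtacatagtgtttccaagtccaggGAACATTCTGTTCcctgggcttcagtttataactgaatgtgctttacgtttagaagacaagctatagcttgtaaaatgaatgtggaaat

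FLI1 (chr11:128686535-128813267, plus strand), the closest relative of ERG and a regulator of blood and endothelial cells, had weak promoters. Its 3 TSS groups had peaks in both lists. The most upstream of them had 31 reads in C4-2B (rank 53.6) against 18 in C4-2BER (rank 28.8), a ratio of 0.695 (0.366 to 1.28). The group that holds the canonical start had 21 reads (rank 24.6) in C4-2B against 20 reads (rank 29.8) in C4-2BER, at different positions. FLI1 had the most peaks of the 7 windows, 33 in C4-2B against 21 in C4-2BER, with 16 and 3 line-only. Within its introns, 7 of 10 C4-2B peaks but 0 of 3 C4-2BER peaks were line-only.

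A C4-2B-only peak in the FLI1 downstream flank was the strongest line-only site of the C4-2B list in any of the 7 windows. It lay outside protein-coding and lncRNA genes at chr11:128881140-128881924, 187381 bp from the canonical TSS, with 83 reads, a fold of 9.13 and a −log10 q of 50.5. The nearest C4-2BER peak was 2762 bp away. Farther along the same flank, shared sites had 52 against 45 and 44 against 39 reads, with ratios of 1.04 (0.679 to 1.57) and 1.06 (0.671 to 1.67). The 121 bases around the C4-2B-only summit, chr11:128881393-128881513, plus strand of hg38, held no motif.
FLI1 downstream: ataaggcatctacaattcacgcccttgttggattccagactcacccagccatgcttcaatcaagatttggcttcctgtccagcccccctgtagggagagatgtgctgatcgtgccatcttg

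ETS1 (chr11:128458761-128587558, minus strand), a factor of lymphoid and invasive cells, had the largest C4-2B-only part. Of its 28 C4-2B peaks, 15 were line-only (53.6%, 35.8 to 70.5), and 0 of its 13 C4-2BER peaks (upper bound 22.8%). Among the 18528 genes, the C4-2B-only share stood at percentile 95.3. The interval takes in the 37.7% of all C4-2B peaks, and the upper bound lies above the 20.8% of all C4-2BER peaks. Part of this count lies in the stretch between ETS1 and FLI1, chr11:128586535-128687558, where 7 of 11 C4-2B peaks but 0 of 4 C4-2BER peaks were line-only and which belongs to both windows. Outside that stretch 8 of 17 ETS1 peaks and 9 of 22 FLI1 peaks of C4-2B were line-only. Only 4 of the 15 C4-2B-only peaks of ETS1 were strong.

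Intronic ETS1 sites in both lists had read ratios below 1, and 4 of the 6 had an interval below 1, while that of the internal promoter took in 1. This promoter, at a TSS group 65118 bp inside the gene from the canonical TSS, had 123 reads in C4-2B (rank 96.5) against 110 in C4-2BER (rank 95.8), a ratio of 1.07 (0.820 to 1.40). The intronic ratios ran from 0.214 to 0.828. The lowest was 117559 bp inside the gene, with 56 reads in C4-2B against 10 in C4-2BER, a ratio of 0.214 (0.0972 to 0.423). Next to it, at 110647 bp, 39 reads stood against 11, a ratio of 0.337 (0.156 to 0.672). At 90297 bp there were 92 and 39 reads, a ratio of 0.507 (0.339 to 0.745). In all, 5 of the 12 matched ETS1 sites had an interval below 1, against 21.2% of all matched summits. The canonical start had a C4-2B peak only, chr11:128587501-128587786, with 11 reads (rank 6.08).

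Among the strong sites flanking ETS1, a pair chosen after their values were seen had fewer reads in C4-2BER. The site at chr11:128607551-128608425, between ETS1 and FLI1, had 94 reads in C4-2B (rank 93.0) against 29 in C4-2BER (rank 71.4), a ratio of 0.369 (0.235 to 0.565), and its width was 875 and 444 bp. Below ETS1, chr11:128453310-128454264 had 102 reads in C4-2B (rank 90.5) against 28 in C4-2BER (rank 64.2), with summits 352 bp apart, so no ratio was formed. The remaining matched sites of the ETS1 flanks had ratios of 1.04, 0.931, 0.701 and 0.695, each with an interval that took in 1. The first of these had 70 reads in C4-2B against 61 in C4-2BER. The strongest C4-2B-only peak of the ETS1 window, chr11:128413242-128413765, had 34 reads and a −log10 q of 23.1. Its 121 bases at chr11:128413553-128413673 are shown, since a forkhead match and an AP-1 match lie next to each other (capitals, in that order). Those of the site between the genes, chr11:128607996-128608116, follow, with no match, both on the plus strand of hg38.
ETS1 downstream: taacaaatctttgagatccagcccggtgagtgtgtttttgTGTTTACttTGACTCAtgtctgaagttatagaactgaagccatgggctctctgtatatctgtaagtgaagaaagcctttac
ETS1 to FLI1: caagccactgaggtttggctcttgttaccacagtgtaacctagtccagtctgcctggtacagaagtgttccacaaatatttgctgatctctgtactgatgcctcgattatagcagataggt

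ETS2 (chr21:38805183-38824955, plus strand), the close homologue of ETS1, had no matched site beyond counting error between the lists. Its promoter peak, chr21:38805044-38806191, covered the first 2 of its 4 TSS groups, with 119 reads in C4-2B (rank 92.5) against 120 in C4-2BER (rank 94.1), a ratio of 1.21 (0.928 to 1.57). The other TSS groups had no peak in either list. The strongest C4-2B peak of the window was 101330 bp downstream, in the lncRNA gene ENSG00000205622, with 120 reads in C4-2B against 86 in C4-2BER, a ratio of 0.857 (0.642 to 1.14). The ratios of its 11 matched sites ran from 0.618 to 1.65. Of 16 C4-2B peaks, 5 were line-only (31.25%, 14.2 to 55.6), and 0 of 11 C4-2BER peaks (upper bound 25.9%). Both intervals take in the shares over all peaks, 37.7% and 20.8%. The downstream summit holds a forkhead match in its 121 bases, chr21:38907199-38907319, plus strand of hg38.
ETS2 downstream: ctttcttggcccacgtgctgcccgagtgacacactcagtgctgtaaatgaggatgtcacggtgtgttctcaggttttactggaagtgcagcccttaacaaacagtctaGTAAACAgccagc

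**Figure D2:**
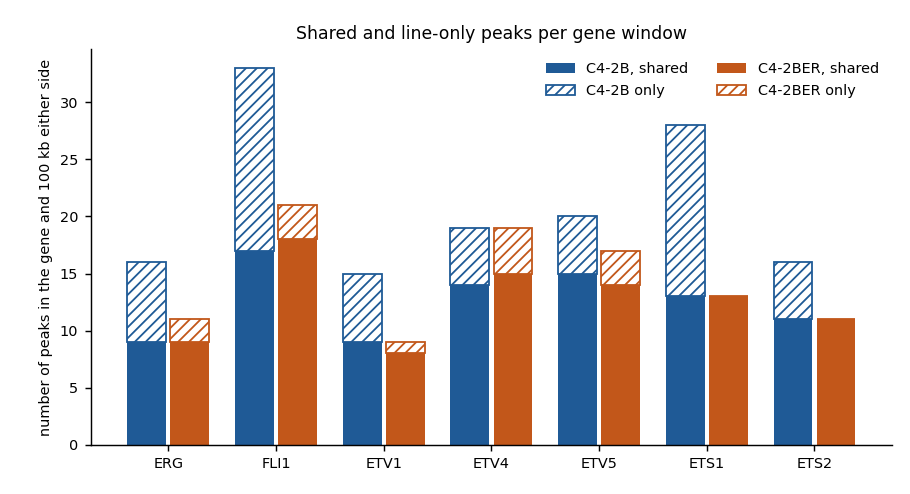
Number of peaks in each gene window (the gene and 100 kb either side), for C4-2B (blue) and C4-2BER (orange). Solid bars are peaks shared with the other list and hatched bars are line-only peaks. FLI1 and ETS1 had 16 and 15 C4-2B-only peaks, of which 7 are the same peaks, and ETS1 and ETS2 had no C4-2BER-only peak.

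The 7 genes have 23 TSS groups. A peak within 1000 bp in both lists was found at 12 of them (52.2%, against 51.5% of all TSS groups), and 7 had none in either list (30.4%, against 40.7%). A C4-2B peak only was found at 3 groups, against 3.56% of all 39064 TSS groups, and a C4-2BER peak only at 1, against 4.28%. The 3 C4-2B-only groups rested on 2 weak peaks, those of ERG and of the canonical ETS1 start, while the C4-2BER-only group, that of ETV4, rested on a strong one. With only peaks of a −log10 q of at least 10 in both lists, 1 group was C4-2B-only and 3 were C4-2BER-only. Counted by gene, none of the 7 had promoter peaks in C4-2BER only, where 3.92% of all genes did, and ERG alone had them in C4-2B only, where 2.33% did.

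**Figure D3:**
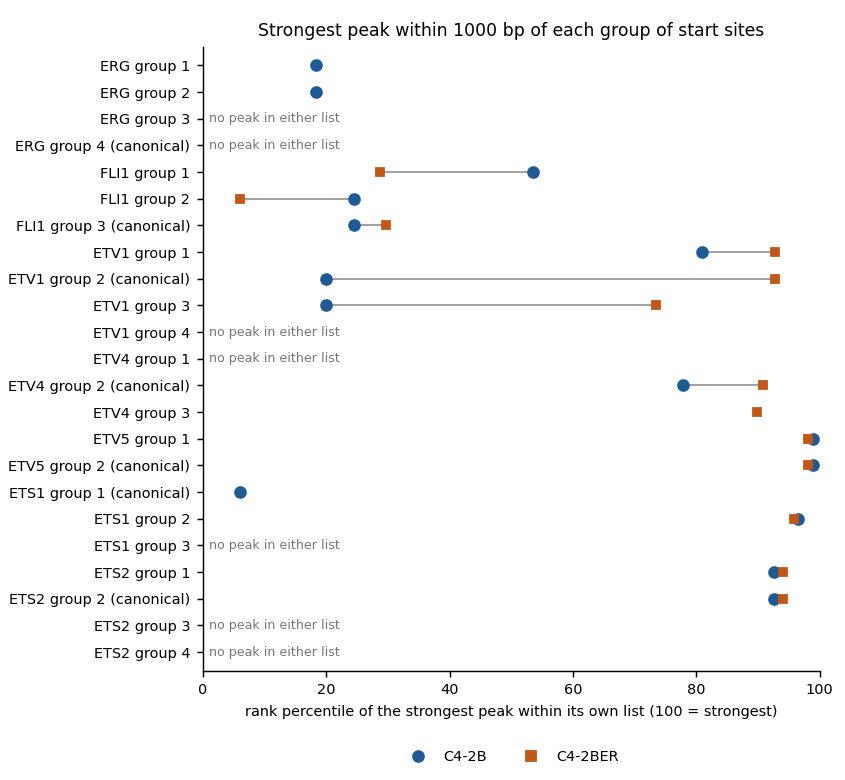
Strongest peak within 1000 bp of each of the 23 TSS groups, numbered from upstream to downstream in each gene. The x axis is the rank percentile within the peak's own list, for C4-2B (blue circles) and C4-2BER (orange squares), and a line joins the values of 1 group. The ETV1 and ETV4 groups with peaks in both lists sit further right in C4-2BER, while the ETV5, ETS2 and internal ETS1 promoters lie at 92.5 or higher in both. Neighbouring groups can share a peak, and joined values can belong to different peaks. At the canonical ETV1 group, ranks 19.9 and 92.7 are those of different peaks, and the matched summit in C4-2BER had rank 73.4.

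Sites matched between the lists were set side by side by their reads. The 74 matched summits of the 7 windows had a median log2 ratio (C4-2BER over C4-2B, depth-scaled) of 0.05, and all 86163 matched summits had −0.15. An interval above 1 was found for 3 of the 74 (4.05%, against 5.1% of all) and below 1 for 9 (12.2%, against 21.2%). The 3 higher sites were the pair of ETV1 promoter summits and 1 ETV4 intronic site. Of the 9 lower sites, 5 lie in the ETS1 window, and 1 of these lies in that of FLI1 too. The medians by gene were 0.670 for ETS1, 0.965 for ETV5, 1.01 for FLI1, 1.08 for ERG, 1.09 for ETS2, 1.10 for ETV1 and 1.22 for ETV4, as ratios.

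**Figure D4:**
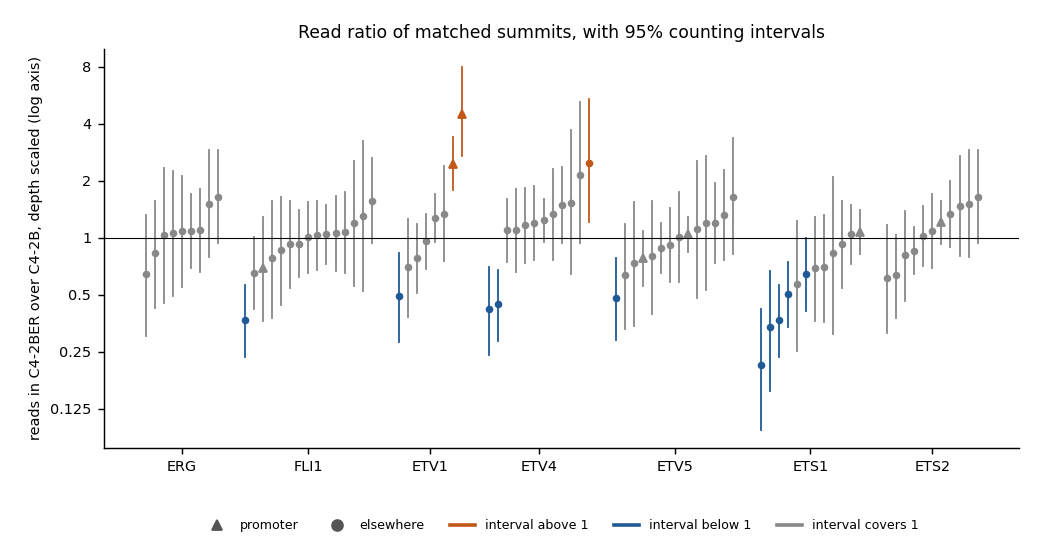
Depth-scaled ratio of reads, C4-2BER over C4-2B, for the matched summits of each gene in order of size, on a log axis. Bars are 95% counting intervals, orange above 1, blue below 1 and grey where they cover 1, and triangles mark promoters. The ETV1 promoters stand highest, at 2.45 and 4.53, and an ETS1 intronic site lowest, at 0.214. Summits in windows that overlap appear under both genes.

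The sequence at the summits was searched for 10 motifs on either strand within 100 bp. No motif lies inside another. CTCF (CCANNAGNNGGC), the factor that bounds chromatin loops, matched 11 of the 81 shared C4-2B peaks (13.6%, 7.76 to 22.7), against 8.07% of all shared peaks. These were 4 in FLI1, 3 in ETV4, 2 in ERG and 2 in ETV5. AP-1 (TGANTCA), a stress-responsive factor that often pairs with ETS proteins, matched 8 of the 51 C4-2B-only peaks (15.7%, 8.17 to 28.0), against 11.2% of all C4-2B-only peaks. E-box (CAGCTG) matched 9 of them (17.6%, 9.57 to 30.3), against 13.1%. Forkhead (TGTTTAC), read by FOXA1 in luminal cells, matched 4 (7.84%, 3.09 to 18.5), against 12.2%. Each of these intervals takes in the share over all peaks of the class.

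Matches to the ETS motif itself (CCGGAAG) were found in 4 of the 81 shared peaks and 0 of the 51 C4-2B-only peaks (upper bound 7.0%), against 3.52% and 0.997% over all peaks. Of the 4, 1 was the ETS2 promoter, 1 lay in KCNJ1 beside FLI1, and 2 were in the flanks of ETV4, among them the DHX8 promoter. HOXB13 (CAATAAA), a prostate homeobox factor, matched 3 C4-2B-only peaks (5.88%, against 6.46% of all C4-2B-only peaks). The androgen/glucocorticoid receptor motif (GNACANNNTGTNC) matched 1 of them (1.96%, against 2.84%). Of the 13 C4-2BER-only peaks, 2 matched forkhead (15.4%, 4.33 to 42.2), against 6.12% of all C4-2BER-only peaks. The E-box, HOXB13 and HNF4 (CAAAGTCC) matched 1 each (7.69%, 1.37 to 33.3), against 13.4%, 4.88% and 1.48%. Each of these intervals takes in the share over all peaks of the class. None of the peaks in the windows matched the HNF1 consensus, which was searched like the others but is not spelled out here, or GRHL (AACCNGGTT). RefSeq promoters were given for 3 members, with 4 entries for ERG, 6 for ETV1 and 2 for ETS2. HOXB13 matched 2 overlapping ETV1 entries, where 4.0% of 35116 promoters match. The E-box matched 2 others, where 17.9% match, and these overlap as well and hold the same match. A match says only that the letters are present.

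Other genes tied to the ETS factors mostly had promoter peaks in both lists, and those given with values here, other than SPIB, were chosen after their values were seen. Over all protein-coding genes 74.5% had them in both lists, 3.92% in C4-2BER only and 19.3% in neither. Of 21 other ETS family genes, 18 had them in both lists (85.7%), SPIB, a B cell factor, in C4-2BER only with 26 reads (rank 17.7), and ETV3L and SPI1 in neither. Ranks were higher in C4-2BER for 8 of the 18 and lower for 10. SPIC, a macrophage factor, had the widest gap in rank, with 63 reads in C4-2B (rank 81.8) against 24 in C4-2BER (rank 52.0). SPDEF, the ETS factor of the prostate epithelium, had 102 reads (rank 84.1) and 60 (rank 77.7). All 11 regulators and MAPK outputs had peaks in both lists, against the same 74.5%, among them CIC, the repressor of PEA3 genes, with 172 and 173 reads, and COP1, a ubiquitin ligase for ETV1, ETV4 and ETV5, with 151 and 157. Within these outputs SPRED1 had 79 reads in C4-2B (rank 72.8) against 101 in C4-2BER (rank 87.8). SPRED2 had 79 reads (rank 82.7) and 75 (rank 65.8), so that its rank differed more than its reads, with folds over the background of 9.22 and 3.58. Values here and for the fusion partners below are those of each gene's strongest promoter peak in each list. These peaks were not matched by position and can differ between the lists.

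The upstream partners of ETS fusions had promoter peaks in both lists for all 10 genes, where 74.5% of all protein-coding genes had them. TMPRSS2 had 128 reads in C4-2B (rank 81.9) against 75 in C4-2BER (rank 79.6). SLC45A3, another androgen-driven partner, had 74 reads (rank 69.6) and 69 (rank 85.0). MIPOL1, the site of the ETV1 rearrangement in this lineage, had 135 (rank 96.5) and 126 (rank 97.4).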

How the data were processed

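ATAC-seq libraries of C4-2B and C4-2BER (2 replicates each) were processed by the authors. Reads were trimmed with cutadapt, aligned to hg38 with Bowtie2 and filtered by mapping quality, and duplicates were removed with Picard. Replicates were merged and peaks were called with MACS2, with a shift printed as 100 and an extension of 200 bp. The MACS2 version is not given in the sources used here. Per the labels, bedtools 2.17 was among the tools. The replicates are described in the methods as biological.

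The deposited columns hold, for each summit, the fold (a ratio) over the local background, the −log10 p-value and q-value against that background, and the summit offset from the interval start. The local background is a mean over 10000 bp. From the fold and the −log10 p, reads per summit were recovered as whole numbers. This succeeded for 100% of summits, and the −log10 p was met to within 0.000251 in C4-2B and 0.000259 in C4-2BER. Depth follows from the floor of the background, with a genome size of 2700000000 bp, and the lowest summits held 8 and 7 reads.

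Peaks were placed by their strongest summit. TSSs of protein-coding transcripts (GENCODE 44) within 500 bp of the next were joined to 1 group, and a promoter peak overlaps 1000 bp either side. Summits were matched within 200 bp, as mutual best partners. Ratios carry exact conditional (binomial) intervals and shares Wilson intervals, both at 95% and for counting error only. No test was run between the lines. Scripts were tested on simulated data.

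Sites were named by rule: the strongest peak of each window and list, every TSS group, the 3 line-only peaks of the highest −log10 q, and the matched sites of the largest and smallest ratio. Further matched sites were chosen after their values were seen. Members and gene lists were chosen with earlier results of these data known. Some genes of the label check are not reported here. RefSeq promoters (GRCh38.p14) matched ERG, ETV1 and ETS2. ETV4, ETV5, FLI1 and ETS1 are named only. Tools were Python 3.11.15, numpy 2.4.6, pandas 2.3.3, scipy 1.17.1, matplotlib 3.10.9 and samtools 1.23.1. Alternatives varied the peak threshold, the overlap, depth, flank, promoter window, TSS set, summit match and motif window.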

Additional observations from a re-analysis of the deposited data

How the results depend on the processing

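No paired analysis was possible because both replicates of a line went into 1 peak list, and for the same reason no replicate could be left out. The C4-2B-only part of 38.6% stayed within 1 counting interval under 8 of 10 alternatives, and the C4-2BER-only part of 13.8% under 7 of 10. Among these, scaling C4-2B to the depth of C4-2BER removed no peak of the windows and left 51 of 132 and 13 of 94. It therefore could not show an effect of depth. Counting only strong line-only peaks gave 23.5% and 5.36%, and equal numbers of top peaks gave 27.8% and 23.4%. A reciprocal overlap of 50% gave 24.5% for C4-2BER. TSS groups with a C4-2B peak only (3) came to 1 with a −log10 q of at least 10 and to 0 with equal numbers of top peaks. TSS groups with a C4-2BER peak only (1) came to 3 under each of these settings, to 3 with a promoter window of 500 bp and to 0 with 2000 bp. Setting the median of all matched summits to 0 moved the median log2 ratio from 0.05 to 0.20. Line-only counts of single genes moved in 24 of 56 cases and motif shares in 6 of 40. The cause was not tested. With 1 merged list per line, a difference between the lines cannot be told apart from one between libraries, and sites near the lowest summits can miss a list at this depth. Acquired resistance and the enzalutamide in the medium of C4-2BER cannot be told apart either.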
